A study of Solanum lycopersicum with 24 samples.

Results

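The 200 genes described here are those whose mRNA was highest at the tetrad stage in control anthers of the tomato cultivar Micro-Tom, out of 35768 genes listed. They were chosen from the deposited FPKM values (read counts scaled to gene length and library size) of the control libraries alone. The control mean at the tetrad stage had to reach 10 FPKM, which held for 9506 genes. The score was log2 of that mean plus 1 over the higher of the control means at the 2 later stages plus 1. A score of at least 2 was reached by 356 genes, and the 200 with the highest scores were kept. All 200 passed the filter on low counts and were among the 21429 genes tested.

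Plants of all groups grew under a light period of 12 hours, and those under heat entered it when they flowered. The heated groups (LTMH, long-term mild heat) had 34 °C by day, 28 °C by night and 68% relative humidity. The control groups (CT) had 25 °C by day, 19 °C by night and 50% relative humidity. Humidity therefore differed along with temperature, and their parts in any difference cannot be told apart. Tetrad anthers were collected after 4 days, free microspore anthers after 6 days and polarized microspore anthers after 8 days, so stage and days of heat also go together. Each group had 4 libraries of 6 pooled anthers each, and the study asked about pollen abortion in prolonged heat. Separate plants for the 4 libraries are not stated in the labels, and p-values cover only the spread among the libraries, which may be technical.

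In the tetrad, the young spores that meiosis has formed remain together inside a callose wall. The tapetum, the innermost layer of the anther wall, is then at its most active. It nourishes the spores, secretes the enzymes that dissolve the callose and supplies material for the pollen wall, and it breaks down as pollen matures. Free microspores have left the tetrad, and in polarized microspores the nucleus has moved to one side before pollen mitosis. In whole anthers, fewer cells of a type and less RNA per cell cannot be told apart. The gene identifiers are not paired with names here, so no member could be assigned to the tapetum or the microspores, and the labelled stages could not be checked against marker genes.

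Library totals lay between 15657765 and 22987661 reads. The free microspore libraries differed widely among themselves in the members' levels. The median member was at 0.747, 10.4, 12.7 and 12.9 FPKM in LTMH replicates 1 to 4, against 6.66, 20.9, 5.92 and 1.94 FPKM in CT replicates 1 to 4. LTMH replicate 1 and CT replicate 4 were the low libraries of their groups and CT replicate 2 was the high one, and the groups overlapped. Genes chosen by the same rule for the polarized microspore stage (136 genes) had a median of 10.98 FPKM in LTMH replicate 1 and of 3.56 to 6.90 FPKM in the other LTMH libraries of the free microspore stage. In the CT libraries of that stage their median was 1.97, 1.83, 7.43 and 3.34 FPKM in replicates 1 to 4. The low CT replicate 4 thus stood above CT replicates 1 and 2 and below CT replicate 3. LTMH replicate 1 was the highest of its group. The part of these library differences in the results below was not tested, and counts are also given without the 2 low libraries. Among tetrad CT libraries, replicates 1 and 2 were much more alike (chi-square per degree of freedom 4.43 over all genes) than any other pair (35.7 to 52.5). They differed by more than counting error alone gives and were kept as 2 libraries, but whether they share plants or RNA is not given in the sources used here, so the 4 CT libraries may stand for 3 independent samples.

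In CT anthers the members' decline was set by the rule and is given as a description. The median member was at 79.8, 86.6, 50.7 and 55.1 FPKM in the 4 tetrad libraries and at 0.370, 0.956, 0.359 and 0.278 FPKM in the 4 polarized microspore libraries. The free microspore mean stood at a median of 14.9% of the tetrad mean (quartiles 10.5% and 17.9%), and the polarized microspore mean at 0.510% (quartiles 0.307% and 2.34%). The free microspore mean was the higher of the 2 later CT means in 196 members, so it set their score, and the polarized microspore mean did so in 4 members. The members took 7.05, 6.80, 5.32 and 4.49% of all reads in tetrad CT libraries, and between 0.052 and 0.103% in polarized microspore CT libraries. The same share in LTMH was 5.85, 3.05, 7.10 and 3.09% at the tetrad stage and 0.151 to 0.173% at the polarized microspore stage.

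The highest scores belonged to Solyc07g016065.1 and Solyc07g016095.1, and the highest score was 5.16. Solyc07g016065.1 was at 1942, 356, 3690.0 and 1505 FPKM in tetrad LTMH libraries, against 1174, 1103, 129 and 184 FPKM in tetrad CT libraries. The CT libraries fell into 2 high ones (replicates 1 and 2) and 2 low ones, and LTMH replicate 2 lay between them. Solyc11g018570.1 had the highest level of all members, at 18793, 4073, 36039.6 and 12782 FPKM in tetrad LTMH libraries, against 14865, 13671, 2379 and 3764 FPKM in tetrad CT libraries. Its libraries had the same order within each temperature as those of Solyc07g016065.1, and the groups overlapped, LTMH replicate 4 lying below CT replicates 1 and 2. Solyc03g053130.3, the member with the next highest tetrad CT mean, differed less between libraries, at 4677, 3843, 3673 and 1812 FPKM in LTMH and 5039, 4973, 5939 and 4270.1 FPKM in CT. The lowest scores inside the limit were 2.28 for both Solyc02g085440.3 and Solyc06g076265.1, and the nearest genes outside it, Solyc05g014150.3 and Solyc08g082490.2, had 2.27 each. The limit therefore cut a continuous range, and the median score was 2.52.

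**Figure D1:**
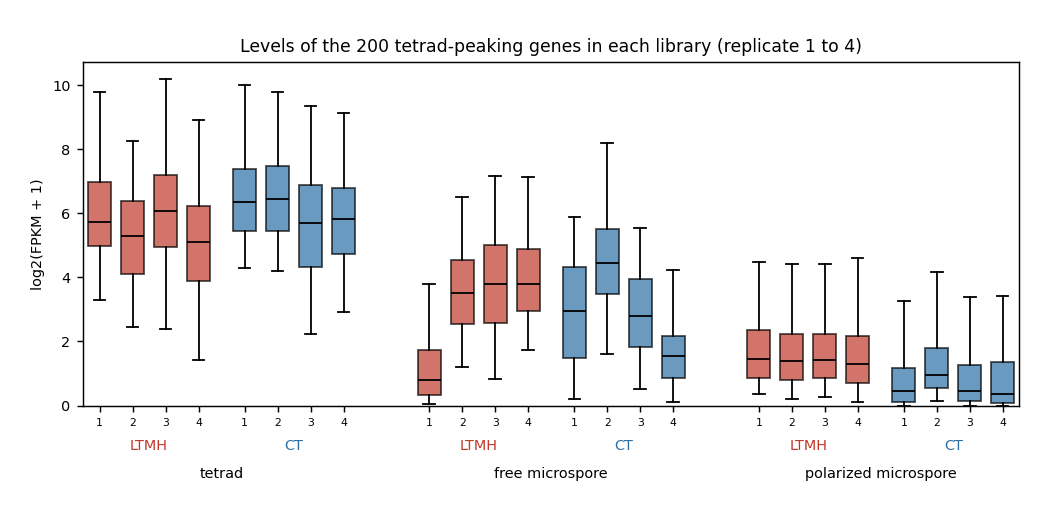
Level of the 200 tetrad-peaking genes in each library, as log2(FPKM + 1), for LTMH and CT at each stage. The box spans the quartiles with the median as a line, and the whiskers run from the 5th to the 95th percentile of the genes. The median falls from the tetrad to the polarized microspore stage at both temperatures, the free microspore libraries spread widely, and the 4 polarized LTMH medians (1.45 to 1.73 FPKM) lie above the 4 CT medians (0.278 to 0.956 FPKM).

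The members also declined in heated anthers, in libraries that the rule had not used. The tetrad LTMH mean was the highest of the 3 LTMH means in 199 of 200 members, and the tetrad LTMH mean reached 10 FPKM in 178. The exception to the first was Solyc04g077580.3, with LTMH means of 9.33, 3.65 and 15.4 FPKM at the tetrad, free and polarized microspore stages. Its log2 change from tetrad to polarized microspore in LTMH was 0.67 ± 0.83 (SE, edgeR adjusted p = 0.519). The free microspore mean stood at a median of 22.1% of the tetrad mean in LTMH (quartiles 14.2% and 29.8%), and the polarized microspore mean at 2.40% (quartiles 1.88% and 4.91%). The score computed from LTMH means had a median of 2.08, and it reached 1 in 190 members and 2 in 110.

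Between the tetrad and the free microspore stage in LTMH, 130 of 200 members were lower, against 12.4% of all genes tested (edgeR quasi-likelihood test over 24 libraries, adjusted p below 0.05). The median log2 change was -2.22, against 0.03 over all genes, and all 200 members were below 0. In 128 members the 4 free microspore libraries lay wholly below the 4 tetrad libraries, against 11.1% of all genes tested. Of the 199 members tested in a fit of these 8 libraries alone, 68 were lower (background 9.34%), and 81 were lower without tetrad LTMH replicate 3 (no background given). Between the free and the polarized microspore stage in LTMH, 117 members were lower, against 13.9% of all genes, with a median of -2.54 against -0.02 over all genes. Only 17 members had no overlap in that step (background 12.4%), where the libraries of the free microspore stage spread widely. From the tetrad to the polarized microspore stage in LTMH, 196 members were lower, against 27.4% of all genes, with a median of -5.40, and 194 had no overlap (background 23.8%).

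The steepest decline in LTMH was that of Solyc07g016055.1, which had 2, 7, 1 and 18 reads in free microspore LTMH libraries. It was at 110.0, 24.3, 207 and 94.8 FPKM in tetrad LTMH libraries and at 0.571, 2.08, 0.307 and 5.20 FPKM in free microspore LTMH libraries. All 4 free microspore libraries were far below all 4 tetrad libraries, a log2 change of -5.74 ± 1.05 (SE, edgeR adjusted p = 0.000961). Solyc11g070080.1, with 3, 76, 12 and 119 reads in free microspore LTMH libraries, changed by -5.49 ± 0.90 in the same step (SE, edgeR adjusted p = 0.000547). At the other end, Solyc01g096380.1 was nearly level across the heated stages, at 12.9, 6.51, 4.84 and 4.91 FPKM in tetrad, 3.94, 6.31, 5.21 and 6.47 FPKM in free microspore and 5.16, 5.77, 3.41 and 7.25 FPKM in polarized microspore libraries. The groups overlapped at each step, and the first step gave -0.44 ± 0.45 (SE, edgeR adjusted p = 0.523). Its value was 0.0164 without tetrad LTMH replicate 1. Solyc05g039950.2 had the next smallest value, -0.96 ± 0.61 (SE, edgeR adjusted p = 0.276).

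The heat comparisons set LTMH against the CT libraries from which the members were chosen. Genes picked for high tetrad and low later CT values can lean by that choice alone towards lower LTMH values at the tetrad stage and higher ones later, and its share in the medians was not tested. In 196 members the free microspore CT mean set the score, and the polarized microspore CT mean entered only by lying below it. Genes chosen by the same rule for other stages show how such sets lie. The 136 genes highest at the polarized microspore stage in CT had median log2 heat changes of 0.18, 0.45 and -0.31 at the tetrad, free and polarized microspore stages. The 33 genes highest at the free microspore stage had 1.06, -0.35 and 1.34. Each of the 3 sets thus had a median below 0 at its own stage. The medians over all genes tested were -0.01, -0.02 and 0.00.

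At the tetrad stage more members were lower than higher in LTMH anthers. The test called 26 members lower, against a background of 12.9% of all genes, and 1 higher, against 8.23% (edgeR, 24 libraries). The 26 are 13.0% of members, near the background, so the count of lower calls did not set the members apart from all genes. An unadjusted p below 0.05 was found in 55 members, 27.5%, against 34.7% of all genes (edgeR, 24 libraries). The median was -0.68 and 155 members were below 0. In 53 members the 4 LTMH libraries lay wholly below the 4 CT libraries (background 7.64%), and in none wholly above (background 18.8%). On the FPKM scale used for overlap the median of all genes was 0.11 higher in LTMH, which moves the backgrounds of the 2 directions apart. A fit of the 8 tetrad libraries alone called 40 members lower (background 8.96%) and none higher (background 8.04%). In that fit 89 members, 44.5%, had an unadjusted p below 0.05, against 35.0% of all genes (edgeR). With limma on log2(FPKM + 1), 39 were lower (background 8.19%) and 6 higher (background 20.4%). The lower and higher calls together came to 50 without the 2 low free microspore libraries (background 22%) and to 43 without free microspore CT replicate 2. With the closely alike tetrad CT replicates 1 and 2 summed as 1 library, 17 members were lower (background 9.95%) and 1 higher (background 5.97%), and the median was -0.60. Both directions came to 18 without tetrad CT replicate 1 or 2, 17 without tetrad CT replicate 3, 12 without tetrad LTMH replicate 3 and 10 without tetrad LTMH replicate 4. No backgrounds are given for omissions of 1 library, so a change in the members' calls cannot be told from one over all genes.

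The 26 lower members had log2 changes of -3.82 to -1.28, with a median of -2.15. Solyc04g077580.3 was at 22.4, 6.81, 3.69 and 4.37 FPKM in LTMH libraries, against 97.0, 103, 129 and 153 FPKM in CT libraries. The groups did not overlap, and the gene fell by 3.82 on the log2 scale (SE 0.87, edgeR adjusted p = 0.00446). Solyc12g038680.1 was at 1.56, 0.083, 1.78 and 0.497 FPKM in LTMH and at 18.0, 13.4, 3.42 and 5.42 FPKM in CT, where replicates 1 and 2 were the high ones. It fell by 3.49 (SE 0.82, edgeR adjusted p = 0.00815; DESeq2 adjusted p = 0.133), on 51 LTMH and 433 CT reads. The 1 member called higher, named after its values were seen, was Solyc11g070080.1, at 105, 22.3, 213 and 109 FPKM in LTMH and 28.7, 27.3, 3.56 and 4.52 FPKM in CT. LTMH replicate 2 lay below CT replicates 1 and 2, and its log2 change was 2.64 ± 0.77 (SE, edgeR adjusted p = 0.0193). That call was lost in the fit of the 8 libraries (edgeR adjusted p = 0.0675), without tetrad CT replicate 3 (edgeR adjusted p = 0.0554) and without tetrad LTMH replicate 3 (edgeR adjusted p = 0.0690).

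**Figure D2:**
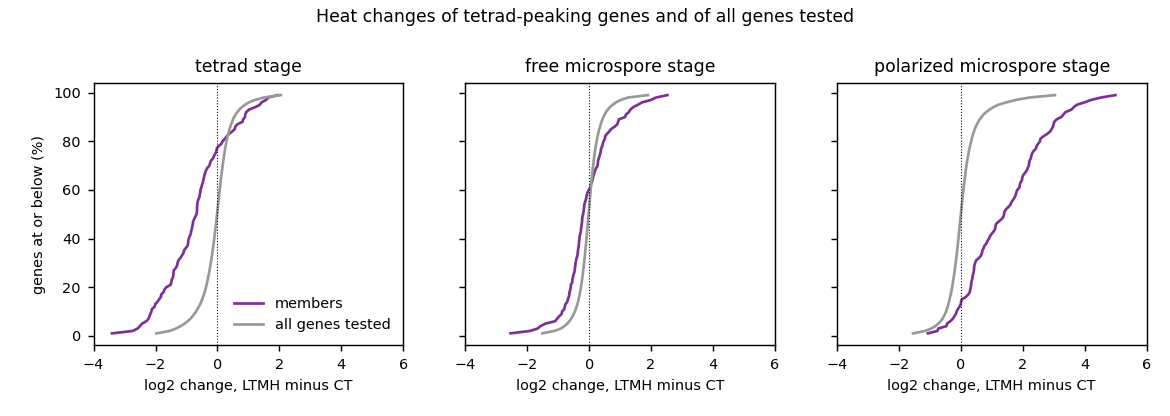
Cumulative percent of genes (y axis) by log2 heat change, LTMH minus CT (x axis), for the 200 members and for all 21429 genes tested at each stage, drawn from the 1st to the 99th percentile. The members' curve lies to the left at the tetrad stage (median -0.68) and to the right at the polarized microspore stage (median 1.40). At the free microspore stage its median, -0.20, is near that of all genes, -0.02, but the curve is wider. Its quartiles there are -0.51 and 0.36, against -0.21 and 0.18 over all genes.

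At the free microspore stage few members were called between temperatures. The test called 2 members lower (background 4.61%) and none higher (background 4.21%). An unadjusted p below 0.05 was found in 10 members, 5.0%, against 23.6% of all genes (edgeR, 24 libraries). DESeq2 called 3 lower (background 5.5%) and 2 higher (background 5.04%), and limma 1 lower (background 2.63%) and 1 higher (background 6.13%). The median was -0.20 and 120 members were below 0, while in limma the median was 0.02. No member was free of overlap in either direction, against 3.80% of all genes lower and 9.17% higher. The 2 members called were named after their values were seen. Solyc01g090010.2 was at 0.119, 2.60, 2.36 and 1.86 FPKM in LTMH and 8.40, 9.19, 7.35 and 1.10 FPKM in CT, where replicate 4 overlapped the LTMH libraries. Its log2 change was -1.99 ± 0.55 (SE, edgeR adjusted p = 0.0290), and the call was lost without any 1 of free microspore CT replicates 1, 2 and 3 or LTMH replicates 1 and 4 (edgeR adjusted p between 0.0522 and 0.0712). Solyc04g078080.1 changed by -2.53 ± 0.79 (SE, edgeR adjusted p = 0.0493) on 13 LTMH and 70 CT reads, a call that was lost under most alternatives (limma adjusted p = 0.0946). A fit of the 8 free microspore libraries called none of 193 members (background 1.08% lower and 1.45% higher), with 7, 3.63%, at an unadjusted p below 0.05, against 19.4% of all genes (edgeR). The direction turned over without free microspore CT replicate 2, where 6 members were called higher (background 3.46%) and none lower (background 4.79%), the median was 0.79 and 169 members were above 0. The count was 0 without free microspore LTMH replicate 1, 4 lower without CT replicate 4, and 1 lower on leaving out any of most other libraries (no backgrounds given).

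At the polarized microspore stage most members had more mRNA in LTMH than in CT anthers, at levels far below those of the tetrad stage. The median member was at 1.73, 1.60, 1.70 and 1.45 FPKM in LTMH libraries, against 0.370, 0.956, 0.359 and 0.278 FPKM in CT libraries. The lowest LTMH library was above the highest CT library, CT replicate 2. At least 1 FPKM was reached by 134, 135, 134 and 121 members in LTMH libraries, against 63, 95, 65 and 64 in CT libraries. Summed over 4 libraries, the median member had 155.5 reads in LTMH and 53.5 in CT. The median log2 change was 1.40, against 0.00 over all genes, and 173 members were above 0. In 104 members all 4 LTMH libraries lay above all 4 CT libraries (background 12.9%), and in 1 they lay below (background 12.2%). That member, named after its values were seen, was Solyc01g080480.3, at 1.73 ± 0.26 FPKM in LTMH and 3.59 ± 1.05 FPKM in CT libraries (SD, n = 4 each), a log2 change of -1.06 ± 0.84 that the test did not call (SE, edgeR adjusted p = 0.425).

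The number of calls at this stage differed widely between fits, and the cause was not tested. With all 24 libraries, edgeR called 15 members higher (background 8.32%) and 1 lower (background 10.7%), and 15 are 7.5% of members, near the background. An unadjusted p below 0.05 was found there in 57 members, 28.5%, against 31.7% of all genes. In the fit of the 8 polarized microspore libraries, 79 of the 153 members tested were higher (background 9.93%) and 2 lower (background 12.6%). In that fit 105 members, 68.6%, had an unadjusted p below 0.05, against 36.2% of all genes (edgeR). The filter on low counts was run again on these 8 libraries, so a member could pass through its LTMH libraries alone. The shares of the 153 members can lean upward by that filter, and its part in them was not tested. Of the 79, 77 had no overlap, and they included 14 of the 15. DESeq2 called 63 higher (background 8.96%) and limma 10 (background 7.76%). Leaving out the 2 low free microspore libraries, which do not enter the contrast itself, gave 60 higher (background 8.57%). Both directions together came to 38 without free microspore LTMH replicate 1 and 26 without free microspore CT replicate 2. They came to 5 without polarized microspore CT replicate 1 or 3, 8 without CT replicate 4, and 9 without polarized microspore LTMH replicate 1 or 2. No backgrounds are given for these omissions of 1 library. The median was above 0 in the fits of 24 and of 8 libraries, in DESeq2, in limma and without the 2 low free microspore libraries.

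The 15 members called higher had log2 changes of 1.93 to 5.38, and all 15 were free of overlap. The largest were low in reads. Solyc01g009190.2 was at 0.716, 1.33, 1.00 and 1.08 FPKM in LTMH libraries, against 0.036, 0.038, 0 and 0 FPKM in CT libraries. The 112 LTMH and 2 CT reads gave a ratio of 51.9 scaled to library totals (exact 95% binomial interval 14.0 to 434, counting error only), and a log2 change of 5.38 ± 1.45 (SE, edgeR adjusted p = 0.0131; limma adjusted p = 0.223). Solyc11g070080.1 was at 1.46, 2.69, 2.75 and 3.19 FPKM in LTMH and at 0.088, 0.046, 0.056 and 0.095 FPKM in CT. Its log2 change was 4.99 ± 1.50 (SE, edgeR adjusted p = 0.0251), which missed the threshold without any 1 of the 4 polarized microspore CT libraries (edgeR adjusted p between 0.0521 and 0.0610) and in limma (adjusted p = 0.0876).

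More abundant members showed the difference on more reads. Solyc11g018570.1 was at 755, 638, 593 and 1126 FPKM in LTMH, against 106, 155, 36.1 and 79.7 FPKM in CT. All 4 LTMH libraries were above all 4 CT libraries, and the gene rose by 3.03 on the log2 scale (SE 0.75, edgeR adjusted p = 0.00801). Solyc03g053130.3 was at 142, 124, 88.0 and 165 FPKM in LTMH and 9.66, 69.6, 29.5 and 8.75 FPKM in CT, a rise of 2.15 (SE 0.67, edgeR adjusted p = 0.0307). Solyc07g016065.1 was at 25.9, 40.2, 48.1 and 39.9 FPKM in LTMH and 1.29, 2.59, 0.315 and 2.97 FPKM in CT, a rise of 4.38 (SE 1.21, edgeR adjusted p = 0.0149). None of these 3 genes passed the test at the tetrad stage, where their log2 changes were 0.89, -0.68 and 1.37.

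The 1 member lower at the polarized microspore stage, named after its values were seen, was Solyc10g086390.2. It was at 11.4, 8.34, 7.75 and 14.6 FPKM in LTMH and 55.3, 45.9, 28.3 and 13.7 FPKM in CT, so that LTMH replicate 4 overlapped CT replicate 4. It fell by 1.77 (SE 0.58, edgeR adjusted p = 0.0383), and it also fell at the tetrad stage, by 1.73 (SE 0.57, edgeR adjusted p = 0.0366). The call at the polarized microspore stage was lost on leaving out any of 7 of the 8 libraries compared (edgeR adjusted p between 0.0508 and 0.118) and in limma (adjusted p = 0.0618).

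**Figure D3:**
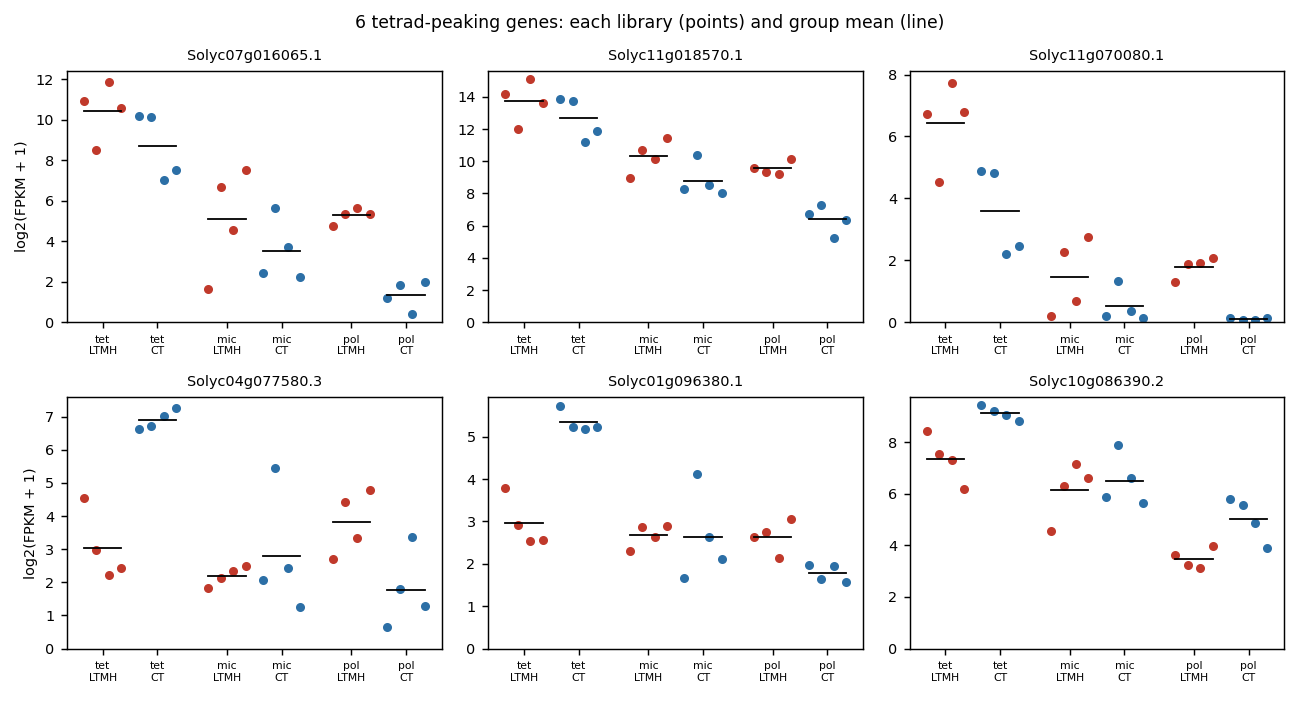
Level of 6 members in each library as log2(FPKM + 1), with a point for each library and a line at the group mean of these values, LTMH beside CT at each stage. Solyc04g077580.3 and Solyc01g096380.1 are lower in LTMH among tetrad libraries, with a higher LTMH mean among polarized microspore libraries, and Solyc11g070080.1 has LTMH means above CT means at all 3 stages.

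In 191 of 200 members the heat change of the polarized microspore stage was more positive than that of the tetrad stage. These changes share the CT libraries used by the rule, and the median of the difference, polarized microspore minus tetrad, was 2.33, against 0.00 over all genes. The difference itself was called positive in 2 members (background 2.71%) and negative in none (background 1.38%), and 68 members, 34.0%, had an unadjusted p below 0.05, against 21.7% of all genes (edgeR, 24 libraries). A fit of the 16 libraries of these 2 stages called 63 members positive (background 4.55%), DESeq2 22 (background 4.47%) and limma 18 (background 3.22%). The count was 44 without the 2 low free microspore libraries (background 3.82%), 13 without free microspore CT replicate 2, 6 without free microspore LTMH replicate 1, and 4 without tetrad LTMH replicate 1 or 3. The omissions of 1 library have no background given. Both members called lie among those lower at the tetrad stage. Solyc04g077580.3 had log2 heat changes of 2.20 at the polarized microspore and -3.82 at the tetrad stage, a difference of 6.03 ± 1.25 (SE, edgeR adjusted p = 0.0129). In polarized microspore libraries it was at 5.57, 20.4, 9.09 and 26.4 FPKM in LTMH, against 0.563, 2.48, 9.26 and 1.41 FPKM in CT, where replicate 3 overlapped. Solyc01g096380.1 had 1.12 at the polarized microspore and -2.61 at the tetrad stage, a difference of 3.73 ± 0.66 (SE, edgeR adjusted p = 0.00712). It was at 12.9, 6.51, 4.84 and 4.91 FPKM in tetrad LTMH libraries, against 52.0, 36.7, 35.0 and 36.2 FPKM in tetrad CT libraries, with no overlap.

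For the difference in heat change between the free microspore and the tetrad stage no member was called, against 0% of all genes (edgeR, 24 libraries). The median difference was 0.57, against 0.01 over all genes, 179 members were above 0, and 7 members, 3.5%, had an unadjusted p below 0.05, against 10.3% of all genes. DESeq2 and limma called none either. An unadjusted p below 0.05 was found in 8 members, 4.0%, with DESeq2, against 6.73% of all 35768 genes listed, low counts included. With limma it was found in 36 members, 18.0%, against 13.2% of all genes tested. Without free microspore CT replicate 2, the median was 1.43 and 11 members were called positive (background 0.752%) and none negative (background 0.0923%). For the difference between the polarized and the free microspore stage no member was called either, against 0% of all genes (edgeR, 24 libraries). The median was 1.62, against 0.00 over all genes, 177 members were above 0, and 23 members, 11.5%, had an unadjusted p below 0.05, against 8.37% of all genes. DESeq2 called none but had 60 members, 30.0%, at an unadjusted p below 0.05. Its 5.93% over all genes took in all 35768 listed, low counts included, so these shares do not compare directly. Limma called none, with 5 members, 2.5%, at that level, against 9.22% of all genes tested.

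No member was called lower for tetrads and also higher for polarized microspores. By sign alone, 130 members were below 0 at the tetrad and above 0 at the polarized microspore stage, 43 were above 0 at both and 24 were below 0 at both. In 10 members, 5.0%, the groups were free of overlap at both stages, LTMH being below CT in tetrads and above CT in polarized microspores (background 0.392%), a pattern towards which the choice of members from CT values can lean. Of the 26 members lower at the tetrad stage, 19 were above 0 at the polarized microspore stage, with a median of 0.38 there. Of the 15 members higher at the polarized microspore stage, 13 were above 0 at the tetrad stage, with a median of 0.89 there.

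**Figure D4:**
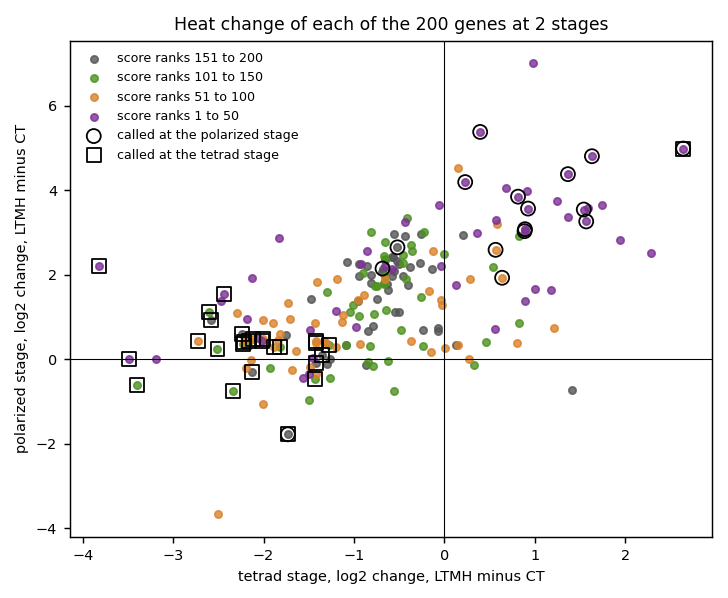
Log2 heat change, LTMH minus CT, of each of the 200 members at the polarized microspore stage (y axis) against the tetrad stage (x axis), coloured by rank of the score, with squares for members called at the tetrad stage and circles for members called at the polarized microspore stage (edgeR, 24 libraries). The upper left part holds 130 members, and most of the 15 called higher at the polarized microspore stage lie to the right of 0.

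The members were not uniform in their heat changes. Ranked by score, the first 50 had median log2 heat changes of 0.29, 0.52 and 2.54 at the tetrad, free and polarized microspore stages, and 11 of the 15 members higher at the polarized microspore stage were among them. The next 50 had -1.32, -0.34 and 0.48, ranks 101 to 150 had -0.71, -0.20 and 1.12, and the last 50 had -0.65, -0.25 and 1.77. Between tetrad libraries of 1 temperature the first 50 also varied most of the 4 groups of 50. Their median was 137, 43.8, 185 and 80.9 FPKM in tetrad LTMH libraries, against 163, 154, 64.9 and 93.7 FPKM in tetrad CT libraries, and the groups overlapped. Genes that scored at least 2 without being kept (156 genes) had median heat changes of -0.77, -0.26 and 0.59, and 624 genes that scored from 1 to 2 had -0.82, -0.18 and 0.05. The tetrad medians of these 2 sets were thus as low as that of the members, while their medians at the polarized microspore stage were nearer to 0.

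**Figure D5:**
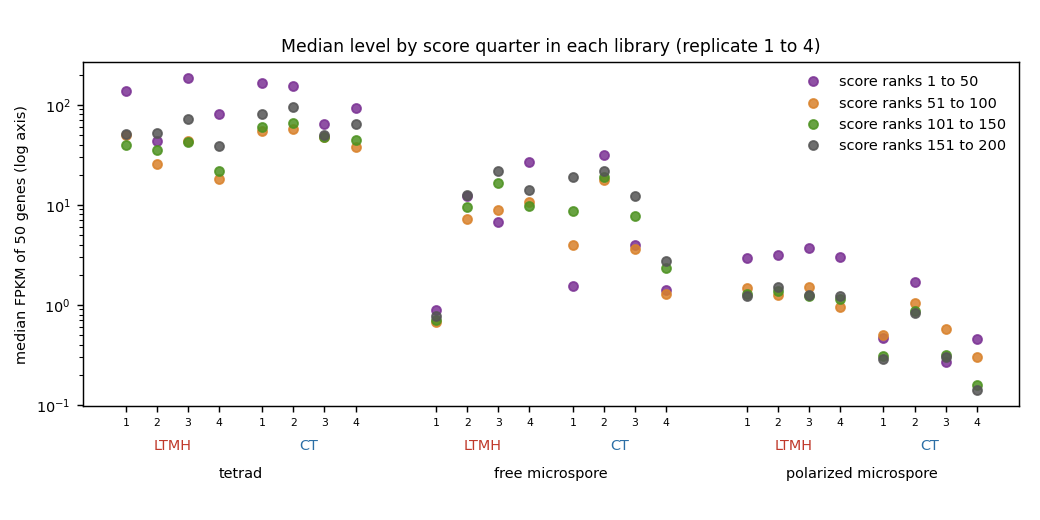
Median FPKM (log axis) of the members in each library, split into 4 groups of 50 by rank of the score, for LTMH and CT at each stage. The first 50 stand highest in most tetrad libraries and in all 4 polarized microspore LTMH libraries, and they vary most between tetrad libraries of 1 temperature.

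The gene models of the members were shorter than average, with a median length of 1306.5 bases (168 to 6085), against 1640 bases for all genes tested and 1549 bases for genes with a tetrad CT mean of at least 10 FPKM. In 20 cases 2 members stood next to each other in the sorted list of identifiers, which took in 37 members. Both members of a pair had heat changes of the same sign at the tetrad stage in 18 of the 20 pairs and at the polarized microspore stage in 19. Of all 200 members, 155 were below 0 at the tetrad stage and 173 above 0 at the polarized microspore stage. Members that are not neighbours would therefore often share a sign too, and the agreement of the pairs was not tested against that. Neighbouring genes may be copies of each other, whose reads the counting could split, and such members are uncertain. By the chromosome number in the identifier, the members were spread over all 12 chromosomes, and 1 member had the number 0. The most, 26, were on chromosome 1, which held 13.0% of members and 12.8% of all genes tested. The fewest, 7, were on chromosome 8, which held 3.5% of members and 7.27% of all genes tested.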

How the data were processed

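The authors deposited raw read counts per gene and FPKM values of the same 24 libraries. TopHat2 2.0.12 and HTSeq 0.6.1 are named in the submitters' processing notes. The build and the annotation were not given in the sources used here. For the library kit the labels' protocols do not state that strand is kept, so reads of overlapping genes on opposite strands may not be told apart. The deposited counts of all libraries were fitted together in 6 groups with edgeR 4.0.16 in R 4.3.3, using TMM scaling, filterByExpr (minimum count 10), robust quasi-likelihood estimation of the spread and 18 degrees of freedom among libraries. Benjamini-Hochberg adjustment ran over all 21429 genes tested, with calls at an adjusted p below 0.05. Log2 changes come from this fit, and levels and overlap are deposited FPKM. DESeq2 1.42.0 (Wald test), limma 3.58.1 on log2(FPKM + 1), other scalings, filters and thresholds, fits of the compared groups alone, a replicate block and leaving out each library were alternatives; 2 more were added after the data were seen. Read ratios carry exact binomial intervals at a confidence level of 95%. Gene lengths were recovered from counts and FPKM to within 0.01 base for 29041 genes. The scripts were tested on simulated counts. None of the 35768 identifiers matched the RefSeq table available (assembly SLM_r2.1, 41476 genes), so names, gene lists, markers and sequences were not used. Genes named are the 2 at the ends of each of the score, the tetrad CT level, the limit of the rule, the heat changes called without overlap, the LTMH decline and the called difference between stages; where 5 or fewer members were called in a direction, all are named. The members, groups and tests were chosen with earlier results of these data known.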

Additional observations from a re-analysis of the deposited data

Results flagged for a closer look

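In groups of 4 libraries, a library was set apart where its gap to the nearest of the others was too large a share of the group's range by Dixon's 95% critical value. This held in 10 of 102 groups tested, where chance alone gives about 1 in 20 for independent groups. The groups here share libraries, so the 2 rates do not compare directly. A group with 1 value above 0 and 3 at 0 is flagged whatever that value is. Such were Solyc12g038680.1 in both free microspore groups and Solyc04g078080.1 in polarized microspore CT libraries. The extremes in free microspore CT libraries were all high, at 1320.0 FPKM for Solyc11g018570.1, 16.8 for Solyc06g076265.1, 43.0 for Solyc04g077580.3, 0.943 for Solyc12g038680.1 and 1.52 for Solyc11g070080.1, and each was replicate 2. Replicate 2 was also the high library of the polarized microspore CT group in the median over members, 0.956 FPKM, and in Solyc04g078080.1, 0.186 FPKM on 2 reads. Replicate 1 was high in 2 tetrad groups, at 22.4 FPKM in LTMH for Solyc04g077580.3 and at 52.0 FPKM in CT for Solyc01g096380.1. Solyc12g038680.1 stood at 0.0839 FPKM, a single read, in free microspore LTMH replicate 4 and at 0 in the other 3.

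The heat effect was called different between stages in 2 members, as the difference polarized microspore minus tetrad (edgeR, 24 libraries). These are 1.0% of members, against 2.71% of all genes called positive. A fit of the libraries of these stages alone called 63 members (background 4.55%). The difference was 6.03 for Solyc04g077580.3 and 3.73 for Solyc01g096380.1 on the log2 scale (edgeR, 24 libraries, adjusted p = 0.0129 and 0.00712).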

How the results depend on the processing

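Each comparison was refitted under the alternatives named with the processing. Called members came to 27 for heat at the tetrad stage, where they were 50 without the 2 low free microspore libraries, 45 in limma, 18 with tetrad CT replicates 1 and 2 summed, 6 at an adjusted p below 0.01 and 0 against a log2 change of 1. At the free microspore stage 2 were called, both lower, against 5 in DESeq2, 1 with tetrad CT replicates 1 and 2 summed, with median-of-ratios or upper-quartile scaling, with a mean of 1 CPM, with no filter and with the replicate block, and 0 in the compared groups alone, against a log2 change of 1 and at 0.01. At the polarized microspore stage 16 were called, against 64 in DESeq2, 61 without the 2 low libraries and 10 in limma. The count there was 81 among the 153 members that passed the filter in the compared groups alone, 2 at 0.01 and 0 against a log2 change of 1. In LTMH, 130 from tetrad to free microspore became 22 against a log2 change of 1, 68 in the compared groups alone and 73 at 0.01, and 117 in the next step became 50 against a log2 change of 1. The 2 differences, polarized microspore minus tetrad, became 22 in DESeq2, 44 without the 2 low libraries, 18 in limma, 63 in the compared groups alone, 1 at 0.01 and 0 against a log2 change of 1. The stricter tests call fewer by construction. Otherwise the cause was not tested. Shares over all genes are given above for part of these settings only, and without them a change in the members cannot be told from one over all genes.

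Leaving out 1 library gave 10 to 43 calls for heat at the tetrad, 0 to 6 at the free (the 6 all higher) and 5 to 38 at the polarized microspore stage. Shares over all genes are not given for most of these omissions. In LTMH it gave 81 to 155, 91 to 137 and 193 to 196 for the successive steps and the whole course. The differences between stages gave 0 to 11 (free microspore minus tetrad), 0 to 0 (polarized minus free microspore) and 2 to 13 (polarized microspore minus tetrad). Of the 200 members, 161 to 200 were kept without 1 CT library and 152 with medians in place of means. The log2 change of Solyc01g096380.1 from tetrad to free microspore in LTMH, -0.44, ranged from -0.61 to 0.0164 over single omissions, the positive value being that without tetrad LTMH replicate 1.

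Same-numbered LTMH and CT libraries showed no steady joint deviation (correlations -0.380 to 0.351). Differently numbered libraries of a stage gave -0.527 to 0.630, both ends at the free microspore stage. The highest was that of the 2 low libraries, LTMH replicate 1 and CT replicate 4. The lowest was that of LTMH replicate 3 and CT replicate 4. With so few libraries per group these correlations cannot exclude that the numbers pair them. The replicate block gave 30, 1 and 14 calls for heat at the 3 stages and 3 for the difference. At the polarized microspore stage depth limits the members: 11 had 3 or fewer reads over 4 CT libraries, and 2 had none.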
